A study of Rattus norvegicus with 13 samples.

Results

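The genes described here are the EGF receptor family and its ligands, 10 of the 28357 named genes in the day 3 tables: the receptors Egfr, Erbb2 and Erbb3, the ligands Hbegf, Areg, Ereg, Tgfa, Btc and Epgn, and the receptor inhibitor Errfi1. They were chosen by symbol, and all 10 were found and passed the filter on low counts. RNA came from the peripheral cornea and limboscleral tissue of male wild-type Lewis rats, 2 months old. The rats modelled limbal stem cell deficiency, in which the epithelial stem cells at the corneal rim are lost and blood vessels invade the cornea. One group of 3 libraries, taken at day 3, received systemic spironolactone, an antagonist of the mineralocorticoid receptor, at 25 mg/kg/day by injection under the skin. The other 3 libraries of day 3 received the vehicle, 90% olive oil with 10% DMSO. Both groups carry the model, the labels do not say how the deficiency was made, and uninjured tissue was not analysed here. The day 7 tables list Ensembl gene IDs that no source used here pairs with symbols, so no member is described at day 7. Whether each library is a separate animal is not stated in the labels, so the p-values reflect only the spread among these libraries, which may be technical.

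The EGF receptor is a tyrosine kinase of the cell surface that pairs with itself or with its relatives ErbB2 and ErbB3 when a ligand binds. Its ligands are made as membrane-bound precursors and are released by proteases called sheddases, and in corneal epithelium this release after wounding drives the cell migration and division that close the wound. Active receptors signal through Ras, ERK and PI3 kinase, and ERK induces early genes as well as inhibitors that dampen the receptor.

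Depth at day 3 was 18.1 to 25.3 M estimated counts per library. Of the corneal markers, Krt12, the keratin of differentiated corneal epithelium, was low at 7.80 to 12.2 CPM, while the basal keratin gene Krt5 had 2863 to 7183 CPM. CPM values here are edgeR's counts relative to library depth after TMM scaling, and TPM is the authors' length-corrected level. The tissue was mixed: summed retinal markers came to 202 CPM in spironolactone replicate 3 and 2878 to 4807 CPM in the other 5 libraries, and the 8 lens markers, led by Cryab and Cryaa, summed to 506 CPM in vehicle replicate 3 and 75.7 to 122 CPM elsewhere. Results are therefore also given without these replicates 3.

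Upstream sequences are shown for 3 members: Errfi1, which had the lowest ratio of spironolactone to vehicle, Erbb2, the receptor with the highest ratio, and Areg, a neighbour of other ligand genes with no detectable difference. Each is the 250 bases before the gene's start in the RefSeq annotation of GRCr8, 5′ to 3′ on the gene's strand. Capitals mark, on either strand, the CCAAT box, the TATA box (TATAAA), the cyclic AMP response element (TGACGTCA) and its half-site (TGACG), which overlap where both occur, and the AP-1 site (TGANTCA). Of the 10 members, 8 had an entry; Erbb3 and Ereg did not.
Errfi1, chr5:166606591-166606840, plus strand: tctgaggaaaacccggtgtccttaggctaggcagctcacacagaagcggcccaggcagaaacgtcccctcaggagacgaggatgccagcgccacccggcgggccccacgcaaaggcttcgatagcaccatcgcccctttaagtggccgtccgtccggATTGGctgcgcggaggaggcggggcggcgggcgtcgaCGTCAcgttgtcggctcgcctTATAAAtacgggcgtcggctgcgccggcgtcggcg
Erbb2, chr10:83907351-83907600, plus strand: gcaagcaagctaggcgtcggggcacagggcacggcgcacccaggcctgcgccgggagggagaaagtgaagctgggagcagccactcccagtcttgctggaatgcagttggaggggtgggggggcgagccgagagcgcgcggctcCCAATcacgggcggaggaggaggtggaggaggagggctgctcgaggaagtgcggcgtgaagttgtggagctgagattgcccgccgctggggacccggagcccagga
Areg, chr14:17265642-17265891, minus strand: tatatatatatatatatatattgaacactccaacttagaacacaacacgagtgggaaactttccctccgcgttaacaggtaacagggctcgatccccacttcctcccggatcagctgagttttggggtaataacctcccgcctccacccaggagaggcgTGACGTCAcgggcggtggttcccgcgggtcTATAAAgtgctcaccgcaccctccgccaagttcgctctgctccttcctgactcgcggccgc

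Areg was the one member of the 8 with a full cyclic AMP response element in this window, 83 bases before the start; 1.59% of 33469 rat windows of the same length hold one. Errfi1 held a half-site 51 bases before its start (18.2% of windows), a TATA box 29 bases before it (12.9% of windows) and a CCAAT box in reverse 88 bases before it (34.0% of windows). Erbb2 held a CCAAT box 101 bases before its start and neither a TATA box nor a half-site. No AP-1 site was found in the 8 windows (6.34% of all windows hold one), nor the palindromic response element of corticosteroid receptors (0.0120% of windows). These are matches of letters and not measured binding sites, and an absent match says only that these letters are not in the window.

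In each spironolactone library of day 3 the 3 receptor transcripts stood above their level in all vehicle libraries, on average by 24.3% for Egfr, 25.8% for Erbb3 and 44.8% for Erbb2. The transcript of their inhibitor Errfi1 was 36.6% lower. The 6 ligands did not move together: Areg, Ereg and Tgfa had positive and Hbegf, Btc and Epgn negative log2 fold changes. None of these differences passed edgeR's quasi-likelihood test at a Benjamini-Hochberg adjusted p of 0.05, nor did any other of 14762 genes tested (0% called); 1798 genes were higher and 1534 lower at an unadjusted p under 0.05, and DESeq2 called 1344 genes. At an unadjusted p under 0.05 the counts were 3 of 10 members higher, where 12.2% of all genes were, and 1 of 10 lower, where 10.4% were. Groups did not overlap in CPM for 4 members, all higher, against 16.0% of all genes higher and 16.1% lower. In TPM they did not overlap for 3 members higher and 1 lower, against 9.86% and 23.1% of all genes. The median log2 fold change of the 10 members was 0.19, and that of all genes was -0.01.

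**Figure D1:**
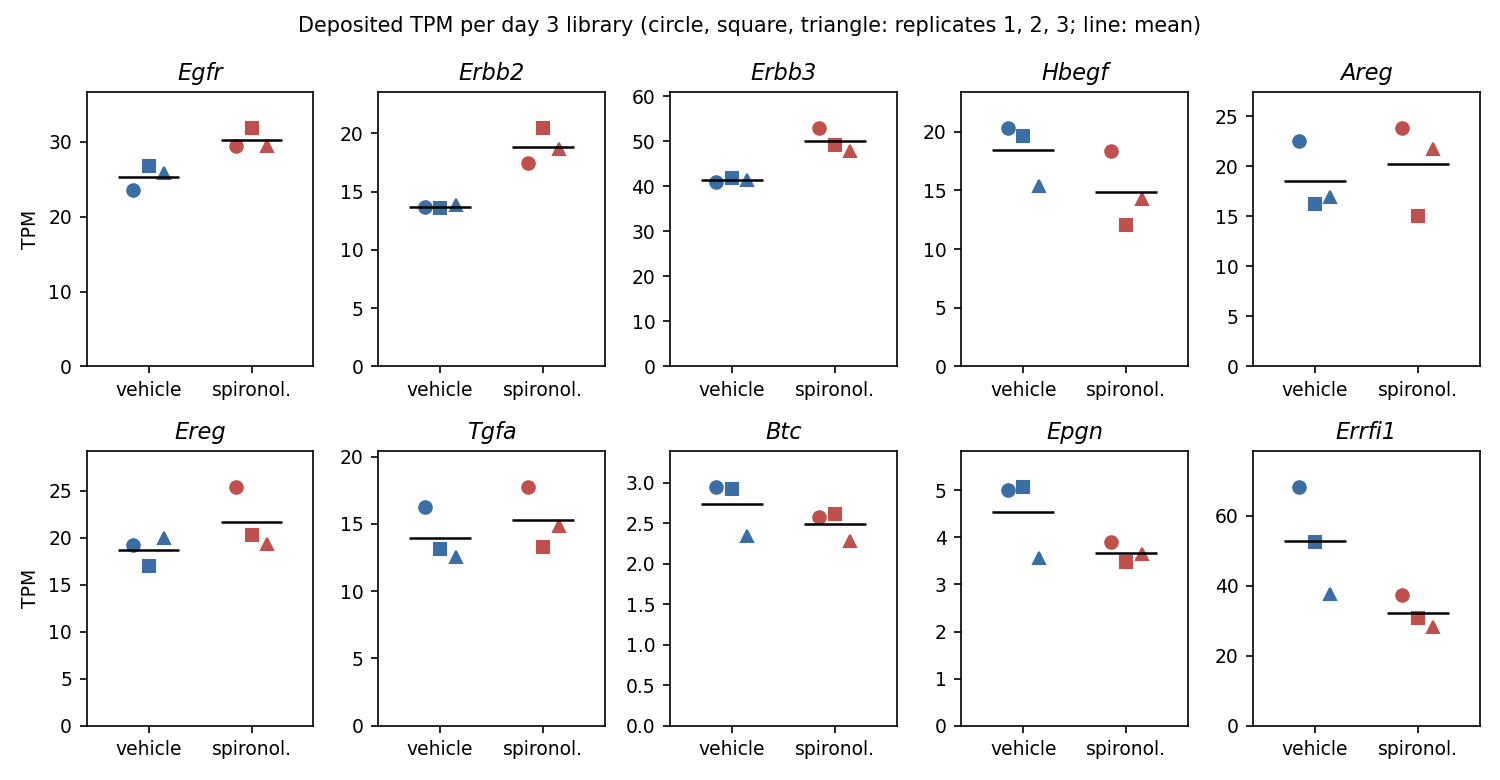
Deposited TPM of the 10 members in each day 3 library, with vehicle in blue and spironolactone in red; circles, squares and triangles are replicates 1, 2 and 3 and lines are group means (n = 3). The spironolactone libraries lie above all vehicle libraries for Egfr, Erbb2 and Erbb3, and below them for Errfi1, where the nearest libraries stand at 37.3 and 37.6 TPM.

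Egfr, the receptor that gives the family its name, had 29.5, 31.9 and 29.5 TPM in spironolactone replicates 1, 2 and 3 and 23.5, 26.7 and 25.8 TPM in the vehicle replicates. All 3 spironolactone libraries were above the highest vehicle library. In CPM this was 82.4 ± 2.99 (SD, n = 3) against 66.3 ± 4.69 (SD, n = 3), a log2 fold change of 0.31 (SE 0.066) with an edgeR adjusted p of 0.0747.

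Erbb2 encodes the partner receptor that binds no known ligand of its own. It had 17.4, 20.5 and 18.7 TPM with spironolactone and 13.6, 13.6 and 13.9 TPM with vehicle. The vehicle libraries were close to each other, and every spironolactone library stood above them. The log2 fold change was 0.53 (SE 0.067), with an edgeR adjusted p of 0.0649, and in the order of unadjusted p Erbb2 was number 15 of the 14762 genes. This adjusted p was the smallest of all genes tested and was shared by genes of other ranks, such as Erbb3 at number 108. Erbb2 is counted over 3 transcript models, where Egfr, Erbb3 and the other members have 1.

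Erbb3, a receptor with a weak kinase that signals by pairing with ErbB2, had 53.0, 49.2 and 47.9 TPM with spironolactone and 40.9, 41.8 and 41.3 TPM with vehicle. The groups again did not overlap. Its log2 fold change was 0.33 (SE 0.055), at an edgeR adjusted p of 0.0649. As a share of the summed TPM of the 3 receptors, Erbb3 made up 48.4% to 53.0% with spironolactone and 50.9% to 52.4% with vehicle, so the groups overlapped in this share. Egfr took 29.5% to 31.4% and 30.1% to 32.5%, and Erbb2 17.5% to 20.2% and 16.6% to 17.5%. The Erbb2 share overlapped only narrowly, at 17.461% in spironolactone replicate 1 and 17.476% in vehicle replicate 1. Spironolactone replicates 2 and 3, at 20.2% and 19.4%, lay above all vehicle libraries. The summed level of the 3 receptors was 96.0 to 101 TPM with spironolactone and 78.1 to 82.2 TPM with vehicle. Its lack of overlap follows from that of each receptor.

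DESeq2 called all 3 receptors, with adjusted p of 0.00512 for Egfr, 1.1e-06 for Erbb2 and 7.6e-05 for Erbb3; it called 5.76% of all genes higher. Limma-voom called 0 genes. In edgeR fits with 1 library left out, the log2 fold changes stayed between 0.26 and 0.36 for Egfr, 0.48 and 0.58 for Erbb2, and 0.29 and 0.36 for Erbb3. Without the filter on low counts Erbb2 passed in edgeR (adjusted p = 0.0406, with 0.564% of all genes called higher). Without vehicle replicate 3, Erbb2 and Erbb3 passed the threshold (adjusted p of 0.0212 and 0.0409, with 3.72% of all genes called higher), and they did so too without the replicates 3 of both treatments (0.0221 and 0.0310, 4.41% higher), while Egfr had a log2 fold change of 0.35 and an adjusted p of 0.0581.

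Markers of stratified epithelium were higher in the same libraries. Their 12 genes summed to 19787 to 23394 CPM with spironolactone and 11171 to 15969 CPM with vehicle, the log2 fold change was positive for 12 of 12 (median 0.69), and none was at 0. In CPM, Krt5 had 6555 ± 893 against 3563 ± 817 with vehicle (SD, n = 3 each), and Krt14, its partner keratin, 4663 ± 779 against 2702 ± 587 CPM. The sum is weighted to its most abundant genes, Krt5 and Krt14, with log2 fold changes of 0.88 and 0.79. The 3 lowest of the same list, Cdh1, Epcam and Krt12, had 0.52, 0.51 and 0.30, nearer to those of the receptors. The rest ran from 0.58 for Krt15 to 0.88 for Krt5. Set against the sum, and so mainly against its abundant keratins, the receptors were not higher. Egfr came to 0.346% to 0.407% of the epithelial marker CPM with spironolactone and 0.428% to 0.624% with vehicle, lower in all 3 spironolactone libraries. Erbb2 came to 0.229% to 0.254% against 0.238% to 0.336% and Erbb3 to 0.811% to 1.06% against 0.991% to 1.41%, with overlapping groups. In bulk tissue, more cells of a type and more RNA per cell cannot be told apart, and the part of the epithelial content in the receptor values was not tested.

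Erbb4, the fourth receptor of the family and not among the 10, was scarce, with 4 to 22 counts in the spironolactone and 35 to 40 counts in the vehicle libraries. Its mean was 0.569 ± 0.346 CPM under spironolactone and 1.62 ± 0.0594 CPM under vehicle (SD, n = 3 each). By edgeR's test the log2 fold change of -1.47 (SE 0.42) had an adjusted p of 0.114, and it was opposite in sign to the other receptors. Its lowest library, spironolactone replicate 3 at 0.200 CPM, was also the one with 202 CPM of summed retinal markers. The 8 retinal markers, among them Gnat1 at 686 ± 565 against 1452 ± 92.1 CPM (SD, n = 3 each), were all lower in the spironolactone libraries, at sums of 202 to 3678 against 4317 to 4807 CPM; their part in the Erbb4 values was not tested.

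**Figure D2:**
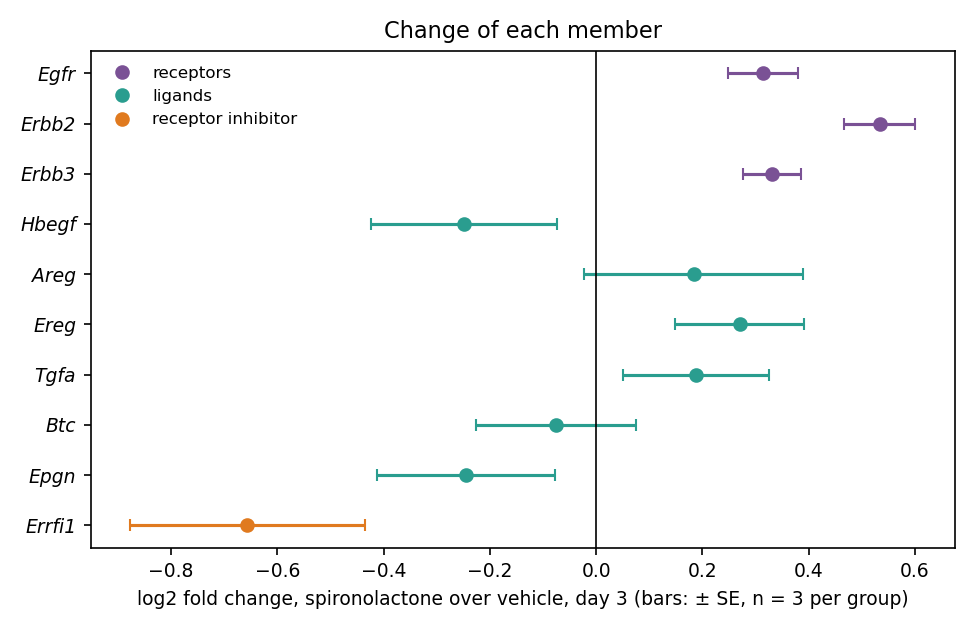
Log2 fold change of each member, spironolactone over vehicle at day 3, with bars of ± 1 SE from the edgeR fit (n = 3 libraries per group) and colours for the member's role. The 3 receptors lie between 0.31 and 0.53, the 6 ligands between -0.25 and 0.27, and Errfi1 at -0.66.

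Of the ligands, Hbegf encodes heparin-binding EGF, a membrane-anchored growth factor shed from wounded corneal epithelium. It had 18.4, 12.1 and 14.3 TPM with spironolactone and 20.3, 19.7 and 15.3 TPM with vehicle. Spironolactone replicate 1 lay inside the vehicle range and the other spironolactone libraries below it. The log2 fold change was -0.25 (SE 0.18), with an edgeR adjusted p of 0.421. It was -0.43 without spironolactone replicate 1, -0.11 without spironolactone replicate 2 and -0.34 without the replicates 3. As a share of the summed TPM of the 6 ligands, Hbegf made up 18.07% to 19.99% with spironolactone and 21.7% to 26.6% with vehicle, without overlap. The share of Tgfa did not overlap either, in the other direction, at 19.3% to 19.9% against 17.7% to 18.8%, and the shares of Areg, Ereg, Btc and Epgn overlapped. Lack of overlap was common in these libraries: in TPM, 9.86% of all genes were higher and 23.1% lower without overlap. The shares were not tested. The summed ligand level itself overlapped, at 66.8 to 91.8 TPM and 70.6 to 86.3 TPM.

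Areg, Ereg, Epgn and Btc are direct neighbours in the GRCr8 annotation, in the order Btc, Areg, Ereg, Epgn with no other annotated gene between them. They did not share a direction. Ereg, which encodes epiregulin, was at 33.4, 26.3 and 25.6 CPM under spironolactone and 24.0, 21.3 and 25.4 CPM under vehicle; the groups did not overlap in CPM, narrowly, but did in TPM, where spironolactone replicate 3 had 19.3 and vehicle replicate 3 had 19.9. Its log2 fold change was 0.27 (SE 0.12, edgeR adjusted p = 0.245) and 0.14 without spironolactone replicate 1.

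Epgn, which encodes epigen, was at 4.96, 4.35 and 4.65 CPM under spironolactone and 6.01, 6.14 and 4.38 CPM under vehicle. Vehicle replicates 1 and 2 were above every spironolactone library, and vehicle replicate 3 was among them. The log2 fold change was -0.25 (SE 0.17, edgeR adjusted p = 0.407). It was -0.15 without vehicle replicate 2 (adjusted p = 0.735), -0.37 without vehicle replicate 3 (adjusted p = 0.196) and -0.39 without the replicates 3 of both treatments (adjusted p = 0.177).

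Areg encodes amphiregulin, a major autocrine ligand of keratinocytes, and Btc encodes betacellulin. Areg ranged from 15.04 to 23.83 TPM with spironolactone and from 16.2 to 22.5 TPM with vehicle, with a log2 fold change of 0.18 (SE 0.21, edgeR adjusted p = 0.613). The spironolactone libraries spanned the whole vehicle range. Btc, with 72 to 106 counts per library, had 2.28 to 2.62 TPM against 2.35 to 2.95 TPM and a log2 fold change of -0.08 (SE 0.15). Areg stood at 0.05, 0.37 and 0.11 without spironolactone replicates 1, 2 and 3, and at 0.35 and 0.11 without vehicle replicates 1 and 2. Btc stood at -0.02 without spironolactone replicate 3, vehicle replicate 1 or vehicle replicate 2, and at -0.15 without vehicle replicate 3.

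Tgfa, the gene of transforming growth factor alpha, another ligand made by epithelial cells, had 17.7, 13.3 and 14.8 TPM with spironolactone and 16.3, 13.1 and 12.6 TPM with vehicle. The groups overlapped in this level. Its log2 fold change was 0.19 (SE 0.14, edgeR adjusted p = 0.435), and it was 0.07 without spironolactone replicate 1, 0.29 without spironolactone replicate 2 and 0.31 without vehicle replicate 1. DESeq2 called none of the 6 ligands.

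Levels can be set side by side in TPM. With vehicle the order of group means was Errfi1 (52.8), Erbb3 (41.4), Egfr (25.4), Ereg (18.7), Areg (18.5), Hbegf (18.5), Tgfa (14.0), Erbb2 (13.7), Epgn (4.54) and Btc (2.74). Errfi1 and Erbb3 overlapped, as did each neighbouring pair from Ereg down to Erbb2, while Egfr stood apart from both of its neighbours. With spironolactone the order was Erbb3 (49.99), Errfi1 (32.1), Egfr (30.3), Ereg (21.7), Areg (20.2), Erbb2 (18.9), Tgfa (15.3), Hbegf (14.9), Epgn (3.67) and Btc (2.49). Erbb3 now stood above the ranges of Errfi1 and Egfr, which overlapped each other. Egf, the ligand the receptor is named for, had 4 to 11 counts per library and was too scarce to be tested.

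Errfi1 encodes Mig6, a cytoplasmic protein that binds the active kinase of the EGF receptor, blocks it and sends it to degradation; its own transcript is induced by receptor signalling and by stress. It had 37.3, 30.8 and 28.3 TPM with spironolactone and 68.3, 52.6 and 37.6 TPM with vehicle. All spironolactone libraries were below all vehicle libraries in TPM, but in CPM the highest spironolactone library had 71.6 and the lowest vehicle library 70.1, so the groups overlapped. Mean values were 61.6 ± 8.87 CPM and 97.1 ± 27.3 CPM (SD, n = 3 each), so the spread with vehicle was wide. The log2 fold change was -0.66 (SE 0.22), with an edgeR adjusted p of 0.164. DESeq2 called it at an adjusted p of 0.0180, with 3.34% of all genes called lower, and edgeR did without vehicle replicate 3 (-0.83, adjusted p = 0.0428, 1.55% of genes called lower). Without vehicle replicate 1, the library with the highest level, the log2 fold change was -0.43 (adjusted p = 0.352), and without the replicates 3 of both treatments it was -0.76 (adjusted p = 0.0584).

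Within each library the inhibitor can be set against the receptor. The ratio of Errfi1 to Egfr TPM was 0.960 to 1.26 with spironolactone and 1.46 to 2.91 with vehicle, and that of Errfi1 to the summed receptors 0.295 to 0.373 against 0.464 to 0.875. Neither ratio overlapped between the groups. This was fixed by the levels already given, since in TPM Errfi1 was lower and each receptor higher without overlap. The ratios are thus no further result. Errfi1 came to 0.234% to 0.362% of the epithelial marker CPM with spironolactone and 0.439% to 1.05% with vehicle. On this scale the spironolactone mean was lower for all 10 members, without overlap for Egfr, Hbegf, Btc and Epgn as well as Errfi1. Because the marker sum was itself higher with spironolactone, any gene that rose less than the sum is lower on this scale. The share of all genes that are lower on it was not computed, so whether these outcomes are particular to the members is not known. They are not a result about the members. These ratios were chosen after the values were seen and carry no test.

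**Figure D3:**
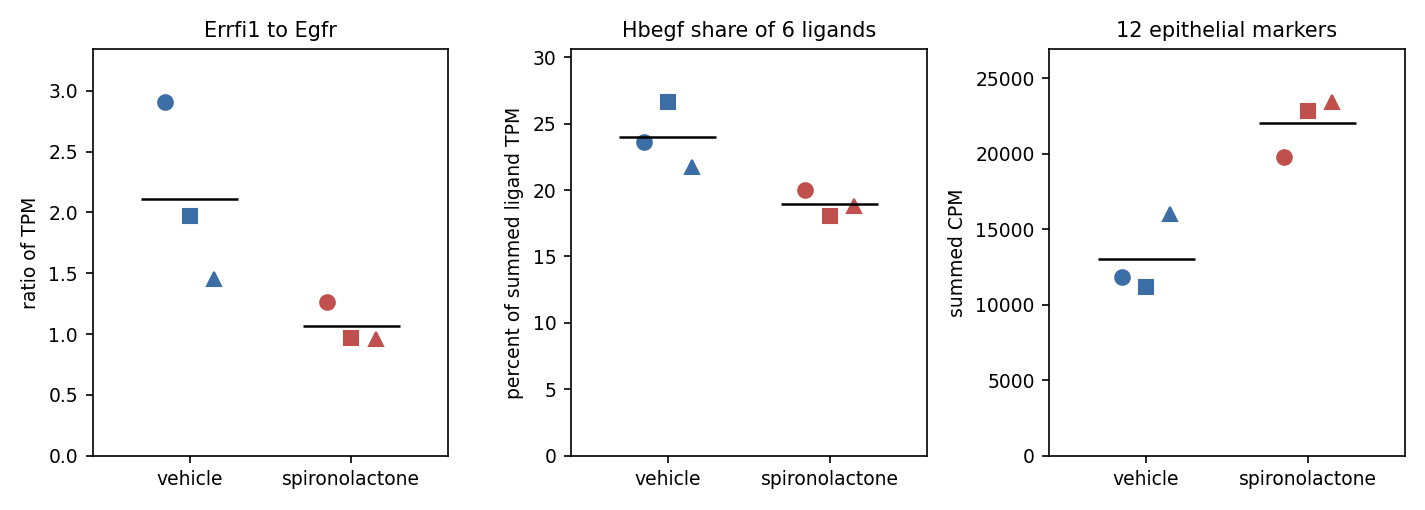
Per day 3 library, the ratio of Errfi1 to Egfr TPM, the percent of summed ligand TPM taken by Hbegf, and the summed CPM of 12 epithelial markers, with vehicle in blue, spironolactone in red, marker shapes for replicates 1, 2 and 3 and lines for means. The groups do not overlap in any panel, and the Errfi1 to Egfr ratio is at most 1.26 with spironolactone and at least 1.46 with vehicle. For the ratio this follows from the Errfi1 and Egfr levels, which each do not overlap in TPM. The panels were chosen after the values were seen. The Tgfa share, not drawn, did not overlap either, in the other direction.

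The genes whose log2 CPM followed Errfi1 most closely over the 6 libraries were Gem, Crem and Il6, with Pearson r of 0.999, 0.997 and 0.996. Gem, a small GTPase gene, stood at 17.8, 14.0 and 12.8 CPM under spironolactone and 36.5, 27.2 and 17.9 CPM under vehicle. Crem, a cyclic AMP-responsive transcription factor gene, had 19.6, 16.2 and 15.8 CPM against 31.5, 24.7 and 18.5 CPM. Il6, the gene of the inflammatory cytokine interleukin 6, had 0.733, 0.282 and 0.200 CPM against 8.26, 2.87 and 0.927 CPM. In these genes, as in Errfi1, replicate 1 was highest and replicate 3 lowest within the vehicle group and within the spironolactone group alike. Because the 3 genes were picked for following Errfi1 over these libraries, their shared order is no separate observation. For Egfr the closest genes were Fam63a, Lmntd2 and Ube2r2 (r of 0.999, 0.998 and 0.997), and for Ereg, the ligand with the highest mean TPM, they were Golga7, Tmc7 and Sptssb (0.980, 0.975 and 0.973). With 14762 genes and 6 libraries in 2 groups such values describe these libraries and are not tested.

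Around the family, genes of the same pathway were grouped in 5 lists. Among the sheddases and rhomboid-type regulators that release the ligands, 4 of 9 were higher at an unadjusted p under 0.05 (12.2% of all genes) and 0 lower, and 5 of 9 had higher groups without overlap (16.0% of all genes). Their median log2 fold change was 0.11. Adam8, a metalloprotease gene, averaged 206 against 140 CPM. Its log2 fold change was 0.56 (SE 0.079, edgeR adjusted p = 0.0649). Rhbdf1 and Rhbdf2, which encode the iRhom partners of ADAM17, had log2 fold changes of 0.30 and 0.26. Adam17 and Adam10, the main ligand sheddases, had 0.11 and 0.04.

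Of the 17 early and late genes that ERK induces, 7 were lower at an unadjusted p under 0.05 (10.4% of all genes) and 0 higher, with a median log2 fold change of -0.31. Egr2, an early zinc finger factor gene, averaged 3.58 against 5.87 CPM, with a log2 fold change of -0.72 (SE 0.15, edgeR adjusted p = 0.0747). The Ets factor gene Etv5 had 23.5 against 30.0 CPM and a log2 fold change of -0.35 (SE 0.090), and Tfpi2, which encodes a protease inhibitor, -1.47 (SE 0.41), with adjusted p of 0.0917 and 0.110. The members differed among themselves: Fos was at -0.84, while Egr1, Junb and Ier2, early genes as well, were at -0.19, -0.13 and 0.01. Myc and Ccnd1, which drive division, were at 0.12 and 0.16.

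The 19 listed inhibitors of receptor and ERK went both ways, with a median log2 fold change of -0.06. At an unadjusted p under 0.05, 3 were higher (12.2% of all genes) and 5 lower (10.4%). The higher genes were Ptpn1, Cblc and Lrig3, and the lower ones Dusp4, Socs5, Spred1, Spry4 and Spry1. Ptpn1, a phosphatase gene, and Cblc, an epithelial ubiquitin ligase gene of the Cbl family, had 0.34 (SE 0.057) and 0.60 (SE 0.12), with edgeR adjusted p of 0.0649 and 0.0747. The ERK phosphatase gene Dusp4 had -0.30 (SE 0.094, adjusted p = 0.135), and Spry4 and Spry1 of the Sprouty family -0.45 and -0.32. Lrig1, a receptor inhibitor of epithelial stem cells, was at 0.05.

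Of the adaptors and kinases of the cascade, 6 of 24 were higher (12.2% of all genes) and 1 lower (10.4%) at an unadjusted p under 0.05, with a median of 0.02. Src, a kinase gene, had a log2 fold change of 0.21 (SE 0.046), Mapk3, a kinase gene of the ERK step, 0.15 and Nras 0.24. Of the 4 tested receptors and ligands outside the 10 members, 1 was higher and 2 were lower at an unadjusted p under 0.05 (12.2% and 10.4% of all genes), with a median of -0.23. Of the neuregulins, ligands of ErbB3 and ErbB4, Nrg1 averaged 17.7 and 18.1 CPM under spironolactone and vehicle (log2 fold change -0.04, SE 0.18). Nrg2, at -0.41, and Nrg4, at 0.53, were low, at 1.47 to 3.96 CPM on average. No gene of the 5 lists passed the adjusted threshold in edgeR.

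**Figure D4:**
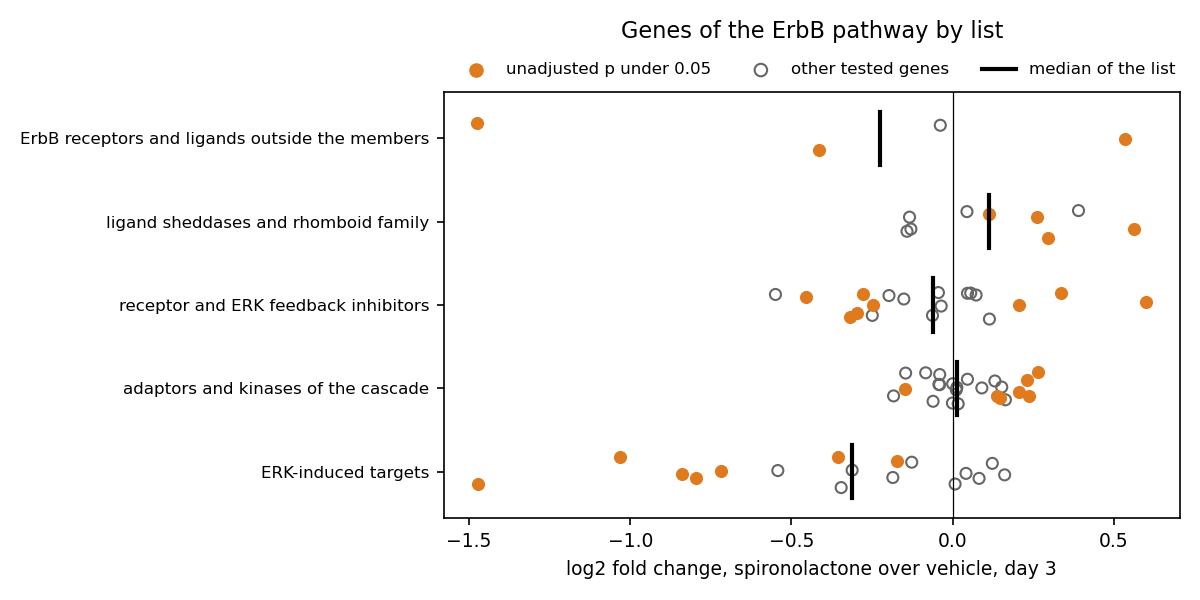
Log2 fold change, spironolactone over vehicle at day 3, of each tested gene in 5 lists around the ErbB pathway; filled points have an unadjusted p under 0.05, open points do not, and black bars are list medians. The ERK-induced targets have a median of -0.31 and the sheddase list 0.11, and points of every list lie on both sides of 0.

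Markers of other cells moved beside these lists. All 8 endothelial markers had negative log2 fold changes, summing to 359 to 473 CPM with spironolactone and 493 to 659 CPM with vehicle, with Kdr and Cdh5 the most abundant. Myeloid sums overlapped at 950 to 1219 against 1200 to 1405 CPM, with 7 of 7 markers, led by Lyz2 and Mrc1, lower in mean, and neutrophil sums at 30.1 to 53.2 against 42.2 to 57.7 CPM, with 6 of 6, led by Mmp9 and S100a9, lower in mean. The 8 skeletal muscle markers, led by Acta1 and Myh2, summed to 118 to 221 against 405 to 921 CPM. Sums of keratocyte and fibroblast markers such as Col3a1 and Col1a1 (15135 to 16595 against 15417 to 17514 CPM), Schwann cell markers such as Pmp22 and S100b (422 to 463 against 417 to 464 CPM) and pigment cell markers such as Tyrp1 and Dct (2976 to 3743 against 3141 to 3438 CPM) overlapped. Mitochondrial transcripts took 4.17% to 4.85% of counts with spironolactone and 5.13% to 5.48% with vehicle. No marker in these lists was at 0 in every library, and their part in the values of Errfi1, the ligands and the ERK targets was not tested.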

How the data were processed

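The authors' expected counts per gene were made in the layout of RSEM, per the file headers, and stand beside the authors' TPM values and gene lengths. Tools named in the submitters' processing notes, without roles, are STAR 2.5.3a and RSEM 1.2.28 among others, with the builds rn6 and Rnor_6.0. Strand use in counting: not given in the sources used here. Expected counts were rounded. A row that names no gene (0.120% to 0.181% of counts) was left out. EdgeR 4.0.16 in R 4.3.3 kept genes with its expression filter (minimum count 10), scaled by TMM and ran robust quasi-likelihood tests with Benjamini-Hochberg adjustment over 14762 genes; SE is the log2 fold change over the square root of F. The tests were checked on simulated counts of independent libraries. These lack the mixed tissue of the real libraries, so the check cannot show how the tests perform on them. Alternatives were DESeq2 1.42.0, limma-voom (limma 3.58.1), RLE factors, other filters, length offsets, log2 TPM with pseudocounts of 0.1 and 1, a replicate block and left-out libraries. Libraries of a group differed beyond sampling noise (chi-square per gene 7.91 to 23.7).

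The members, lists and tests were chosen with earlier results of these data known. Named genes are the 10 members, the 3 genes with the smallest p of each pathway list, the 2 most abundant markers of each list, and the 3 genes most like Egfr, Errfi1 and the top ligand; other genes named were chosen after their values were seen, as were the promoter motifs. Promoters and gene order come from RefSeq, GRCr8, and were not compared with rn6 coordinates. The markers Col1a2, Itgam, Myh1 and Myh4 were not analysed here. Day 7 tables were not used here, and 2 genes are not reported here.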

Additional observations from a re-analysis of the deposited data

How the results depend on the processing

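Each member kept its direction in all 16 alternative settings: of 160 values, 0 changed sign and 10 passed the threshold, all of them for Egfr, Erbb2, Erbb3 or Errfi1. The log2 TPM settings gave a direction but no p-value, so their values could not pass. Of all genes, edgeR called 0, DESeq2 1344, edgeR without a filter on low counts 148 (1 member, Erbb2, at an adjusted p of 0.0406), and edgeR without the replicates 3 of both treatments 1040. With 1 library left out the count ran from 0 to 781; the highest count came with vehicle replicate 3 left out, 40 with vehicle replicate 1 left out, and 2 with spironolactone replicate 3 left out. Members at an unadjusted p under 0.05 numbered 4 in edgeR, 3 to 6 with 1 library left out, and 6 without the replicates 3. In the main fit 12.2% of all genes were higher and 10.4% lower at that p. For the other settings, where the count of all genes called also moved, that share was not computed. Their member counts are therefore not a result about the members. Deviations of same-numbered libraries correlated at 0.09, -0.08 and 0.05, and those of differently numbered libraries at -0.11 to 0.05. With groups of 3 libraries such values cannot show whether the replicate numbers in the titles mark a shared batch or litter. With the replicate block edgeR called 0 genes, and 5 members had an unadjusted p under 0.05, Tgfa being the one added, again without the share of all genes. The block lowered the SE of Errfi1 from 0.22 to 0.10 (log2 fold change -0.63, edgeR adjusted p = 0.0886) and that of Tgfa from 0.14 to 0.069. It raised the SE of Erbb3 from 0.055 to 0.062 and that of Epgn from 0.168 to 0.172. On the TPM scale the median of all genes shifted by -0.07. Few counts stand behind the values of scarce genes such as Btc, Epgn, Erbb4, Nrg2, Nrg4 and Il6, and Egf was not tested.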
